A study of Mus musculus with 6 samples.

Results

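The 10 dendritic cell (DC) identity genes Itgax, Cd24a, Flt3, Zbtb46, Batf3, Xcr1, Ccr7, Itgae, Cd209a and Clec9a were examined in tumor-associated macrophages (TAMs). The mice were with or without Cre-mediated targeting in myeloid cells of Pdcd1, the gene of the inhibitory receptor PD-1. The genes were chosen by name, with earlier results of these data known. Each symbol matched 1 Ensembl gene among the 55421 genes of the count table. TAMs, sorted as live CD45+CD11b+F4/80+Ly6G- cells, came from subcutaneous MC17-51 fibrosarcomas (M17 in the labels) at day 15 after implantation into young adult mice. Both genotypes carried floxed Pdcd1 (Pdcd1f/f), and Pdcd1f/fLysMcre mice also carried Cre under the lysozyme (LysM) promoter, which acts in macrophages, monocytes and neutrophils. There were 3 RNA-seq libraries of each genotype. Whether a library was made from 1 mouse or from pooled mice is not given in the sources used here, so the p-values measure the spread between these libraries. The comparison addressed whether higher Itgax and Cd24a came together with the genes that mark DCs.

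Conventional DCs (cDCs) arise from bone marrow precursors that depend on the cytokine FLT3 ligand, and they carry antigen from tissues to T cells. They fall into cDC1, which depend on the transcription factor BATF3 and cross-present antigen, and cDC2. The transcription factor ZBTB46 is shared by both and is largely absent from macrophages. Itgax, which encodes the integrin subunit CD11c, and Cd24a, which encodes a glycosylphosphatidylinositol-anchored surface protein, are used to gate DCs. Macrophages and other leukocytes express them as well, whereas Xcr1 and Clec9a are much more restricted to cDC1.

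Upstream sequence was available in the RefSeq promoter table (GRCm38.p6) for Itgax, Flt3, Zbtb46, Batf3, Xcr1, Cd209a and Clec9a, that is for 7 of the 10 genes. The 250 bases before the start site are shown 5′ to 3′ on the coding strand for Itgax, which rose, and for Flt3 and Zbtb46, which had the largest log2 fold changes among the 8 of these genes tested. Capitals mark a match to TGANTCA, the motif bound by AP-1 factors. The windows are chr7:128129300-128129549 on the plus strand (Itgax), chr5:147400490-147400739 on the minus strand (Flt3) and chr2:181424389-181424638 on the minus strand (Zbtb46), the last lying within the longer Zbtb46 gene model used for counting lengths.
Itgax: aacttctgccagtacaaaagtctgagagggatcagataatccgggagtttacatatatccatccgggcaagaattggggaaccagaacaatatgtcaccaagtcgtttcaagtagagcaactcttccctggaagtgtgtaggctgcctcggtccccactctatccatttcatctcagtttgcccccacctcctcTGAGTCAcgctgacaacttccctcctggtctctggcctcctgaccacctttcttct
Flt3: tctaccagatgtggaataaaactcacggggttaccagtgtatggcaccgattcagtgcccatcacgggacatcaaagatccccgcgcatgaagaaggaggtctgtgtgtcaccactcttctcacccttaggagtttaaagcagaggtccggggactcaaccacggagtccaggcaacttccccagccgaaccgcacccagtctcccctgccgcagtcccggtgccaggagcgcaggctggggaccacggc
Zbtb46: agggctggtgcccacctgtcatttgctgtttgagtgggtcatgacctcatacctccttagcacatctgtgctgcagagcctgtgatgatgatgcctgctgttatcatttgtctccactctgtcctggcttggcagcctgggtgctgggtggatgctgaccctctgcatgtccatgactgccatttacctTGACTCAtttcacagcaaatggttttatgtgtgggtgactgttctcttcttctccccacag
On either strand, TGANTCA matched in 2 of the 7 windows (Itgax and Zbtb46), and it was present in 6.75% of 32851 promoter windows of this length. GAGGAA, the core of motifs bound by the ETS factor PU.1, matched in 1 window (Batf3) and in 23.3% of all windows. The matches describe letters in these windows only.

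Libraries held 41833823 to 51417209 counts, and at this depth 3 counts correspond to 0.0583 to 0.0717 CPM, which covers counting error only. Raw counts of Pdcd1 were 10, 12 and 15 without Cre and 7, 16 and 11 with it (adjusted p = 0.771 from edgeR). Gene counts do not tell the floxed exons from the rest. Lyz2, the gene into which LysM Cre was inserted, fell from between 207974 and 225226 normalized counts to between 405 and 465 (adjusted p = 2.4e-12 from edgeR), the direction that the labelled genotypes require. Because the Pdcd1f/f libraries lack Cre, effects of Cre, of the fall of Lyz2 and of Pdcd1 targeting cannot be told apart here. The summed Y-linked genes Ddx3y, Kdm5d, Eif2s3y and Uty were at 1545 to 1914 normalized counts in Pdcd1f/f and at 6267 to 7233 in Pdcd1f/fLysMcre libraries, and Xist was at 17318 to 26511 and at 8530 to 13137. The mix of sexes differed between the genotypes and cannot be told apart from them. Pdcd1f/f replicate 1 and Pdcd1f/fLysMcre replicate 2 stood apart by the GC content of their genes. The Spearman rho between GC content and the deviation from the genotype mean was -0.642 and -0.556 in them over 13150 genes, and 0.138 to 0.576 in the other libraries.

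Itgax and Cd24a rose in Pdcd1f/fLysMcre TAMs, by 1.31-fold and 1.42-fold. Flt3 and Zbtb46 had larger ratios, 1.59-fold and 1.61-fold, on under 100 normalized counts and did not pass the test. Batf3, Ccr7, Itgae and Cd209a did not pass the test either, and Xcr1 and Clec9a were too low to be tested. Thus 8 of the 10 genes passed the filter on low counts, which a gene could pass through the genotype where it is high, and 2 of these 8 were called, both higher. Among all 14469 genes tested 5.43% were called (edgeR, adjusted p under 0.05), 2.42% as higher and 3.01% as lower in Pdcd1f/fLysMcre. The median log2 fold change of the 8 genes was 0.41, against -0.0026 over all genes tested. The authors had already reported Itgax and Cd24a as higher in these TAMs. The calls and the median of this list are thus not independent of how it was chosen. In bulk RNA more cells of a type and more RNA per cell cannot be told apart.

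**Figure D1:**
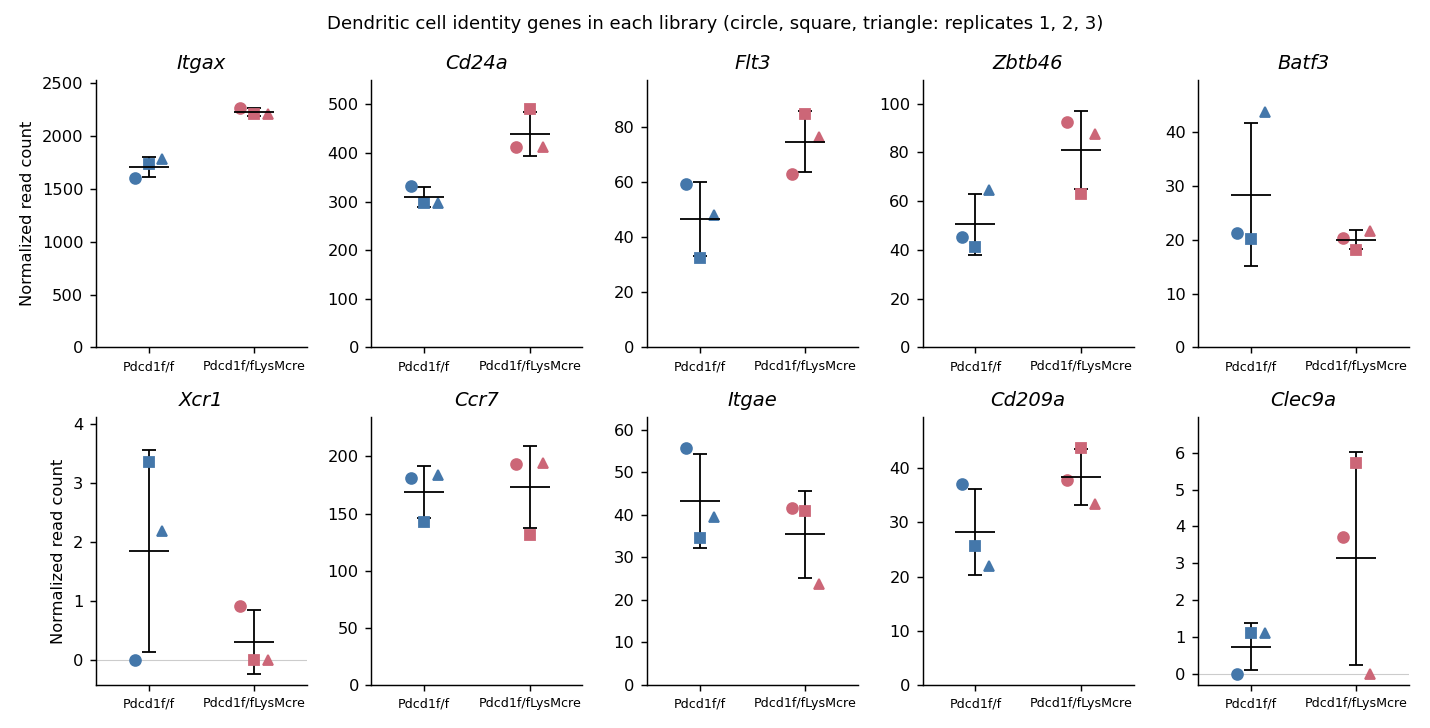
Normalized read counts of the 10 genes (vertical axes, linear and separate for each gene) in the 3 Pdcd1f/f and the 3 Pdcd1f/fLysMcre libraries; long bars are means and error bars SD over 3 libraries. Itgax, Cd24a and Flt3 have no overlap between the genotypes, and Xcr1 and Clec9a stay under 6 normalized counts.

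Itgax (ENSMUSG00000030789, chr7:128129547-128150657, plus strand, GRCm38) encodes CD11c, which pairs with the β2 integrin chain to form complement receptor 4. Its normalized counts, the authors' raw counts divided by a size factor for each library, were 1606, 1738 and 1789 without Cre and 2271, 2213 and 2206 with it. Every Pdcd1f/fLysMcre library was above every Pdcd1f/f library, and the spread was smaller in Pdcd1f/fLysMcre (2230 ± 35.2, SD, n = 3 libraries) than in Pdcd1f/f (1711 ± 94.2, SD, n = 3 libraries). The log2 fold change was 0.38 (SE 0.07, 95% interval 0.23 to 0.54, adjusted p = 0.0108 from edgeR). The call was lost without Pdcd1f/f replicate 2 (log2 fold change 0.40, adjusted p = 0.0708 from edgeR) and without Pdcd1f/fLysMcre replicate 1 (0.37, adjusted p = 0.0792 from edgeR). Without both libraries that stand apart by GC content it held at 0.34 (adjusted p = 0.000645 from edgeR). In all 19 alternatives together the log2 fold change lay between 0.33 and 0.44 and the adjusted p between 1.1e-05 and 0.0792.

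Cd24a (ENSMUSG00000047139, chr10:43578284-43584265, plus strand) encodes the CD24 surface protein, which binds sialic acid-binding lectins such as Siglec-G. The control libraries were at 333, 297 and 297 normalized counts, and Pdcd1f/fLysMcre libraries at 413, 490 and 412. The genotypes did not overlap, and Pdcd1f/fLysMcre replicate 2 was the highest library. The means were 309 ± 20.7 and 438 ± 45.1 (SD, n = 3 libraries each), with a log2 fold change of 0.51 (SE 0.11, 95% interval 0.26 to 0.75, adjusted p = 0.0287 from edgeR). With libraries left out in turn, the call held in 1 of 6 fits, that without Pdcd1f/f replicate 1 (0.55, adjusted p = 0.0078 from edgeR). The log2 fold change was 0.48 without Pdcd1f/f replicate 2 (adjusted p = 0.151), 0.47 without Pdcd1f/f replicate 3 (adjusted p = 0.109), 0.55 without Pdcd1f/fLysMcre replicate 1 (adjusted p = 0.0873), 0.42 without Pdcd1f/fLysMcre replicate 2 (adjusted p = 0.0958) and 0.54 without Pdcd1f/fLysMcre replicate 3 (adjusted p = 0.0516, all from edgeR). Cd24a lies 73.7 Mb from Lyz2 on the same chromosome. CD24 also has sequence copies in the genome, and how reads matching several places were counted is not given in the sources used here.

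Flt3 (ENSMUSG00000042817, chr5:147330741-147400489, minus strand) encodes the receptor for FLT3 ligand, the growth factor of DC precursors. The controls held 59.3, 32.4 and 48.2 normalized counts and the Pdcd1f/fLysMcre libraries 62.9, 84.8 and 76.7. The genotypes did not overlap, but the lowest Pdcd1f/fLysMcre library was close to the highest Pdcd1f/f library. Of the 8 genes tested, 3 (Itgax, Cd24a and Flt3) had no overlap and were higher, where 14.1% of all genes tested had no overlap in this direction and 27.2% in either. Log2 fold changes were above 0 for 6 of the 8, against 49.6% of all genes tested. These counts include Itgax and Cd24a, already reported as higher before the list was made. The log2 fold change of Flt3 was 0.67 (SE 0.25, 95% interval 0.12 to 1.22, adjusted p = 0.137 from edgeR). Without Pdcd1f/f replicate 1, the highest control library, it was 0.88 and passed the threshold (adjusted p = 0.0351 from edgeR). The adjusted p ranged from 0.0351 to 0.412 over the alternatives.

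Zbtb46 (ENSMUSG00000027583, chr2:181387762-181459426, minus strand), the transcription factor shared by cDCs, was at 45.4, 41.3 and 64.6 normalized counts in Pdcd1f/f and at 92.5, 62.9 and 87.5 in Pdcd1f/fLysMcre. The genotypes overlapped through a single pair, Pdcd1f/f replicate 3 and Pdcd1f/fLysMcre replicate 2. The log2 fold change was 0.69 (SE 0.24, 95% interval 0.15 to 1.22, adjusted p = 0.120 from edgeR). It passed the threshold without the 2 libraries that stand apart by GC content (0.76, adjusted p = 0.0379 from edgeR) and with the replicate number as a block together with GC and length offsets (0.70, adjusted p = 0.0388 from edgeR). The adjusted p ranged from 0.0379 to 0.373 over the alternatives. Flt3 and Zbtb46 together held 105, 73.7 and 113 normalized counts in Pdcd1f/f and 155, 148 and 164 in Pdcd1f/fLysMcre libraries, a difference of 58.6 between the means.

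Batf3 and Itgae, genes of the cDC1 lineage, had lower means in Pdcd1f/fLysMcre TAMs and did not pass the test. Batf3 (ENSMUSG00000026630, chr1:191097847-191108945, plus strand), the AP-1 family factor that cDC1 need, was at 21.3, 20.1 and 43.8 normalized counts in Pdcd1f/f and at 20.4, 18.1 and 21.6 in Pdcd1f/fLysMcre. Pdcd1f/f replicate 3 stood above the other 5 libraries, which lay between 18.1 and 21.6. The log2 fold change was -0.49 (SE 0.37, 95% interval -1.31 to 0.33, adjusted p = 0.440 from edgeR), and without that library it was -0.05. Itgae (ENSMUSG00000005947, chr11:73090583-73147446, plus strand), which encodes the CD103 integrin chain of tissue cDC1 and of resident T cells, was at 55.6, 34.6 and 39.4 and at 41.6, 41.0 and 23.6 normalized counts (log2 fold change -0.29, SE 0.30, 95% interval -0.96 to 0.38, adjusted p = 0.591 from edgeR). Its log2 fold change was -0.07 without Pdcd1f/f replicate 1 and -0.08 without Pdcd1f/fLysMcre replicate 3. The genotypes overlapped for both genes.

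Xcr1 (ENSMUSG00000060509, chr9:123852315-123862029, minus strand), the receptor by which cDC1 sense the chemokine XCL1, had raw counts of 0, 3 and 2 in Pdcd1f/f and 1, 0 and 0 in Pdcd1f/fLysMcre libraries. Clec9a (ENSMUSG00000046080, chr6:129408862-129424763, plus strand), the cDC1 receptor for actin of dead cells, had raw counts of 0, 1 and 1 in Pdcd1f/f and 4, 6 and 0 in Pdcd1f/fLysMcre libraries. Neither gene reached 10 counts in any library, and both were at 0 in at least 1 library of each genotype, where 0 allows up to 3 counts. Without the filter on low counts the log2 fold changes were -2.13 (SE 1.80, adjusted p = 0.605) for Xcr1 and 1.98 (SE 1.49, adjusted p = 0.560, both from edgeR) for Clec9a, so no difference was detectable at this depth. Clec9a shares 184 exon bases with Clec1b on the same strand, and reads there cannot be assigned to 1 gene.

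Ccr7 (ENSMUSG00000037944, chr11:99144196-99155077, minus strand) encodes the chemokine receptor that takes mature DCs to the lymph node. The controls were at 181, 143 and 184 normalized counts and the Pdcd1f/fLysMcre libraries at 193, 131 and 195. The ranges nearly coincided, and the log2 fold change of 0.03 (SE 0.18, adjusted p = 0.928 from edgeR) had a 95% interval from -0.36 to 0.43. Its sign turned when some libraries were left out. Cd209a (ENSMUSG00000031494, chr8:3743397-3748984, minus strand), a C-type lectin of cDC2 and monocyte-derived DCs, was at 37.1, 25.7 and 21.9 and at 37.9, 43.8 and 33.4 normalized counts. The genotypes overlapped through Pdcd1f/f replicate 1 and Pdcd1f/fLysMcre replicate 3 (log2 fold change 0.43, SE 0.29, 95% interval -0.21 to 1.077, adjusted p = 0.388 from edgeR). Without Pdcd1f/f replicate 1 the log2 fold change of Cd209a was 0.68, and without Pdcd1f/f replicate 3 it was 0.28. Cd209a belongs to a cluster of similar genes, so its counts are uncertain where reads match several members.

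**Figure D2:**
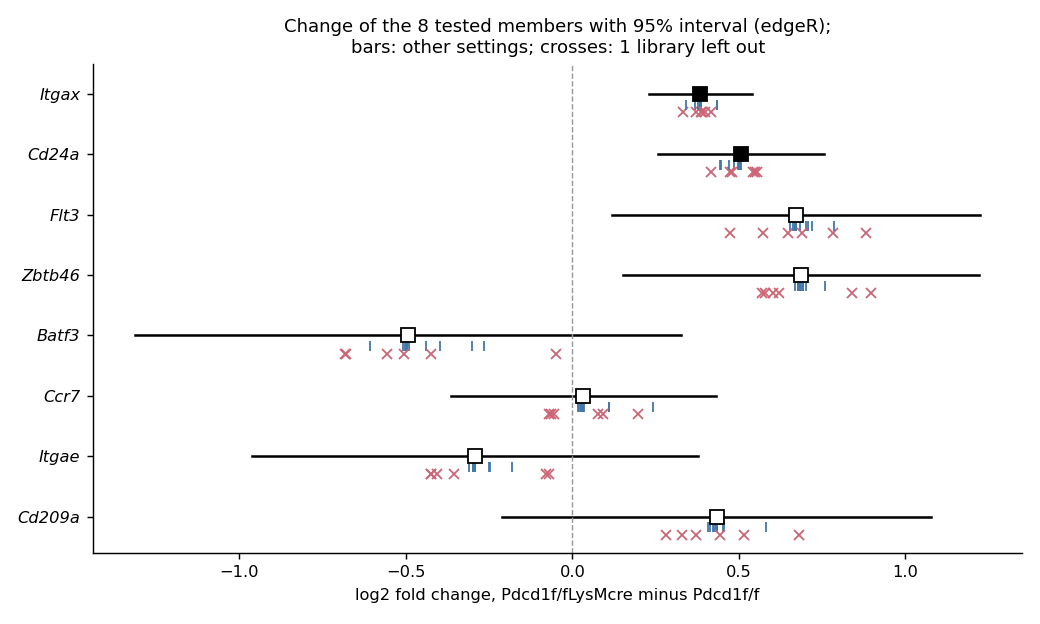
Log2 fold change of the 8 tested genes (horizontal axis, Pdcd1f/fLysMcre minus Pdcd1f/f); squares with lines are the edgeR estimate and 95% interval, filled where adjusted p was under 0.05, bars are other settings and crosses are fits with 1 library left out. Itgax, Cd24a, Flt3, Zbtb46 and Cd209a stay above 0 in each fit, Batf3 and Itgae stay below 0, and Ccr7 lies on both sides.

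Levels can be compared between genes only per length, and for this the raw counts were converted to TPM with exon lengths. On this scale Itgax was the highest of the 10 genes (25.0 ± 0.88 TPM in Pdcd1f/f and 33.1 ± 0.32 TPM in Pdcd1f/fLysMcre, SD, n = 3 libraries), followed by Cd24a (8.40 ± 0.73 and 12.1 ± 1.28 TPM) and Ccr7 (5.998 ± 0.81 and 6.23 ± 1.29 TPM). These 3 did not overlap with their neighbours in either genotype. The order then ran Cd209a, Batf3, Flt3, Itgae, Zbtb46, Clec9a and Xcr1, with mean levels of 1.49, 1.07, 0.70, 0.61, 0.55, 0.042 and 0.017 TPM over the 6 libraries. In Pdcd1f/f the neighbours Cd209a and Batf3 overlapped, as did Flt3 and Itgae. In Pdcd1f/fLysMcre Batf3 and Flt3 overlapped, as did Itgae and Zbtb46, and Clec9a and Xcr1 overlapped in both. By mean TPM Itgax stood at percentile 66.3 of the genes tested, Cd24a at 44.8 and Ccr7 at 36.6, whereas Flt3, Zbtb46, Batf3, Itgae and Cd209a stood between 9.11 and 19.6.

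The 8 genes other than Itgax and Cd24a summed to 400, 302 and 405 normalized counts in Pdcd1f/f and to 453, 388 and 438 in Pdcd1f/fLysMcre. The ranges overlapped, and the means differed by 57.3 normalized counts. The mean of Itgax alone differed by 519 normalized counts and that of Cd24a by 129. Per length the 8 genes summed to 8.40 to 11.1 TPM in Pdcd1f/f and to 9.81 to 11.7 TPM in Pdcd1f/fLysMcre libraries. The differences between the mean levels per length were 8.11 TPM for Itgax, 3.70 TPM for Cd24a, 0.87 TPM for the sum of the 8 genes and 0.60 TPM for Flt3 and Zbtb46 together. These sums describe the libraries and were not tested.

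**Figure D3:**
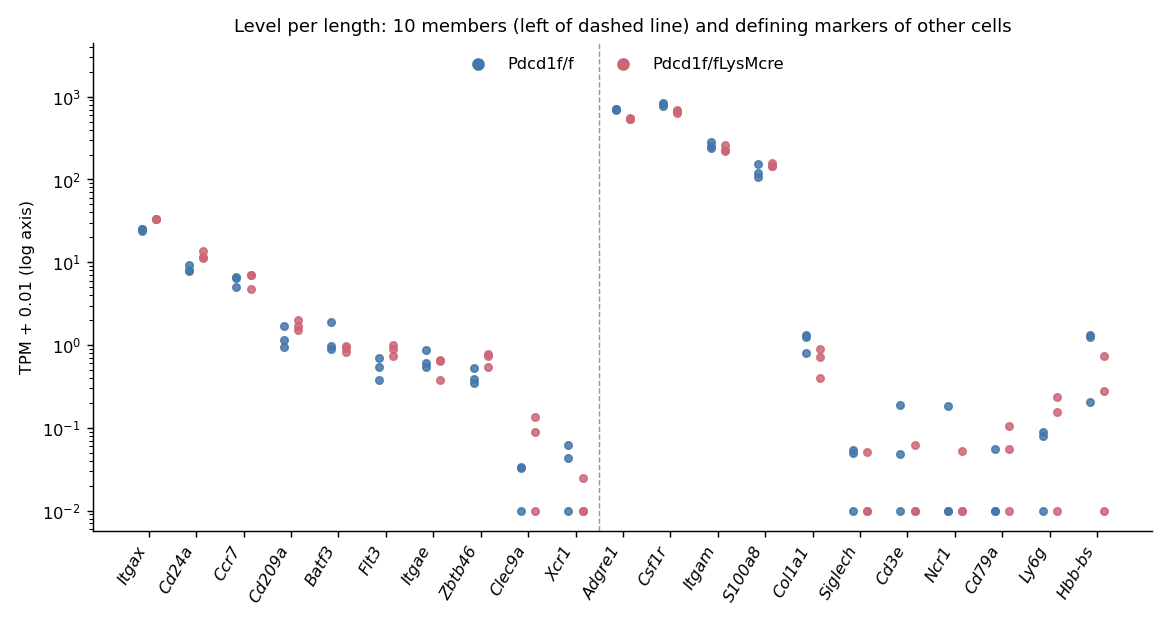
Level per length of the 10 genes (left of the dashed line, in order of mean level) and of markers that define other cells, as TPM + 0.01 on a log axis, with 1 point for each of the 3 libraries of a genotype. Itgax lies more than 10 times below the macrophage markers Adgre1 and Csf1r, and Xcr1 and Clec9a lie with the T, NK and B cell markers.

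The labelled cell type was checked against its markers. Adgre1, which encodes F4/80, was at 701 ± 18.3 TPM in Pdcd1f/f and Csf1r, the receptor of the macrophage growth factor CSF1, at 814 ± 42.0 TPM (SD, n = 3 libraries each). Both fell in Pdcd1f/fLysMcre TAMs, by 0.38 (SE 0.06, adjusted p = 0.0050) and 0.32 (SE 0.07, adjusted p = 0.0308, both from edgeR) on the log2 scale. Itgam, which encodes CD11b, had a log2 fold change of -0.16 (adjusted p = 0.237 from edgeR). Of the 13 macrophage markers 9 were lower and none higher, beside 3.01% lower and 2.42% higher over all genes tested. Their summed level was 662781 to 781448 normalized counts in Pdcd1f/f and 523257 to 559482 in Pdcd1f/fLysMcre libraries, with no overlap. The number called ranged from 2 without Pdcd1f/f replicate 2 or without Pdcd1f/fLysMcre replicate 1, through 5 without Pdcd1f/fLysMcre replicate 2, to 10 without Pdcd1f/f replicate 1. For Adgre1 the call was lost without Pdcd1f/f replicate 2 (adjusted p = 0.0508) and without Pdcd1f/fLysMcre replicate 1 (adjusted p = 0.0513, both from edgeR). For Csf1r it was lost without Pdcd1f/f replicate 2 (adjusted p = 0.172) or 3 (adjusted p = 0.119) and without Pdcd1f/fLysMcre replicate 1 (adjusted p = 0.135) or 2 (adjusted p = 0.1003, all from edgeR). The fall of macrophage markers thus moved with the rise of Itgax and Cd24a, and its part in that rise was not tested.

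Defining markers of lymphoid cells and of plasmacytoid DCs (pDCs) were at or near 0. Cd3e of T cells had 11, 2 and 0 counts in Pdcd1f/f and 0, 0 and 3 in Pdcd1f/fLysMcre libraries, Ncr1 of NK cells had 0 to 4 counts in a library. Counts were 0 to 2 for Cd79a of B cells and for Siglech of pDCs. Ly6g, the neutrophil marker excluded by the sort, had 0 to 3 counts. S100a8, which neutrophils and monocytes express, was at 1253 ± 206 and 1472 ± 71.8 normalized counts (SD, n = 3 libraries each; log2 fold change 0.23, adjusted p = 0.220 from edgeR). S100a8 passed the threshold without Pdcd1f/f replicate 1 (0.36, adjusted p = 0.0091 from edgeR), as did Col1a1 of fibroblasts (-1.003, adjusted p = 0.0218 from edgeR). With all libraries Col1a1 was at 105 ± 28.2 and 60.8 ± 23.0 normalized counts (SD, n = 3 libraries each; log2 fold change -0.78, adjusted p = 0.145 from edgeR). Hbb-bs, the β-globin of red cells, had 0 to 15 counts in a library.

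In the 6 whole marker lists of these other cells edgeR called 6 of 24 genes tested, 2 higher and 4 lower, beside 5.43% of all genes tested. The summed normalized counts ranged from 660 to 769 in Pdcd1f/f and from 642 to 785 in Pdcd1f/fLysMcre libraries for 10 T cell genes. They ranged from 169 to 209 and from 120 to 149 for 8 B cell genes, and from 77.0 to 104 and from 83.6 to 141 for 8 NK cell genes. Among these 3 sums only that of B cells had no overlap, and it was lower in Pdcd1f/fLysMcre. Of the genes tested, 1 of 4 T cell genes was higher (Cd5) and none of 1 B cell gene or 2 NK cell genes was called by edgeR. Of these 1 of each had an unadjusted p under 0.05, and DESeq2 called the B cell gene and limma-trend neither. For 10 neutrophil genes the sums were 6583 to 6776 and 5501 to 5638, with 2 of 6 tested lower (Csf3r and Mmp8). Per length the neutrophil sums overlapped, at 299 to 356 and 315 to 334 TPM. For 10 genes of fibroblasts, endothelium and epithelium they were 4275 to 4435 and 3637 to 4029, with 2 of 9 tested lower (Col1a2, a collagen gene of fibroblasts, and Pecam1, a gene of endothelium and leukocytes), and per length they overlapped, at 47.4 to 52.5 and 43.4 to 48.6 TPM. For 8 red cell and platelet genes the sums were 4373 to 4550 and 7350 to 8699, with 1 of 2 tested higher. That gene was Ppbp, a platelet chemokine, at 4422 ± 89.2 and 7828 ± 738 normalized counts (SD, n = 3 libraries each; log2 fold change 0.83, SE 0.07, adjusted p = 2.0e-04 from edgeR), and it was called in all 19 alternatives. Without Pdcd1f/f replicate 2 or 3 or Pdcd1f/fLysMcre replicate 1 or 2, no T cell gene was called by edgeR. The neutrophil count was 1 without Pdcd1f/f replicate 2, and the count of fibroblast, endothelial and epithelial genes 1 without Pdcd1f/f replicate 3 or Pdcd1f/fLysMcre replicate 1. Cd5, Csf3r, Mmp8, Col1a2, Pecam1 and Ppbp are named after their values were seen, and the part of these markers in the rise of Itgax and Cd24a was not tested.

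Among the partners and ligands of the 10 genes edgeR called 2, both lower, and Itgb7 was called higher under some alternatives. Itgb2, the β2 chain that pairs with CD11c, was at 21658 ± 1604 and 21867 ± 989 normalized counts (SD, n = 3 libraries each) with a log2 fold change of 0.02 (SE 0.07, adjusted p = 0.912 from edgeR). Its sign turned with scaling by library size alone. Itgb7, the partner of the CD103 chain, was at 2293 ± 246 and 2813 ± 316 normalized counts (SD, n = 3 libraries each; log2 fold change 0.30, SE 0.10, adjusted p = 0.112 from edgeR). It was called in 5 of the 19 alternatives, among them GC and length offsets (0.45, adjusted p = 3.2e-06 from edgeR). Flt3l, which encodes FLT3 ligand, was at 144 ± 23.1 and 114 ± 8.71 normalized counts (log2 fold change -0.33, SE 0.16, adjusted p = 0.244 from edgeR). Ccl19 and Ccl21a, the ligands of CCR7, had 0 counts in each of the 6 libraries, and Xcl1, the ligand of XCR1, had 0 to 4.

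Jun, which encodes an AP-1 partner of BATF3, fell from 25009 ± 2596 to 18054 ± 1766 normalized counts (log2 fold change -0.47, SE 0.09, adjusted p = 0.0167 from edgeR), and Batf, a relative of Batf3, fell from 437 ± 13.4 to 287 ± 42.3 (SD, n = 3 libraries each; log2 fold change -0.60, SE 0.12, adjusted p = 0.0189 from edgeR). Junb had a log2 fold change of -0.53 (SE 0.18, adjusted p = 0.119 from edgeR), and without Pdcd1f/f replicate 1 it passed the threshold (-0.72, adjusted p = 0.0026 from edgeR). The call of Jun was lost without Pdcd1f/f replicate 2 (adjusted p = 0.0961) or 3 (adjusted p = 0.0589) and without Pdcd1f/fLysMcre replicate 1 (adjusted p = 0.102) or 2 (adjusted p = 0.0690, all from edgeR). That of Batf was lost without Pdcd1f/f replicate 2 (adjusted p = 0.0859) or 3 (adjusted p = 0.0654) and without Pdcd1f/fLysMcre replicate 2 (adjusted p = 0.0512, all from edgeR). The adhesion ligands Icam1 (-0.07, adjusted p = 0.627), Icam2 (-0.42, adjusted p = 0.171) and Cdh1 (-0.17, adjusted p = 0.493), the CD24-binding Siglecg (0.23, adjusted p = 0.826), the cytokine Csf2 (0.34, adjusted p = 0.772) and its receptor chains Csf2ra (-0.20, adjusted p = 0.376) and Csf2rb (-0.07, adjusted p = 0.564, all log2 fold changes from edgeR) did not pass the test. Without Pdcd1f/f replicate 1, Icam2 (-0.57, adjusted p = 0.0267) and Csf2ra (-0.33, adjusted p = 0.0429, both from edgeR) did. Of the 13 genes tested in this list 2 were lower and none higher (edgeR), with 5 at an unadjusted p under 0.05 in either direction. Over all genes tested 3.01% were called lower and 2.42% higher. DESeq2 and limma-trend called 2 each. The edgeR count was 0 without Pdcd1f/f replicate 2 or 3 or Pdcd1f/fLysMcre replicate 2, 1 without Pdcd1f/fLysMcre replicate 1 and 5 without Pdcd1f/f replicate 1.

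In 6 wider lists of DC genes, which include some of the 10, edgeR called 8 of the 70 genes tested higher and 1 lower, beside 2.42% higher and 3.01% lower over all genes tested. This split changed with the setting, to 9 higher and 6 lower by DESeq2, 10 and 7 without Pdcd1f/f replicate 1, and 12 and 10 without both libraries that stand apart by GC content (edgeR). Without each of the other 5 libraries 2 to 5 were called higher and 1 lower. Of 21 genes shared by cDCs 2 were higher and 1 lower, with a median log2 fold change of 0.14. Nectin1, an adhesion molecule, rose from 690 ± 68.4 to 985 ± 58.5 normalized counts (0.52, SE 0.10, adjusted p = 0.0126 from edgeR). Ap1s3, a clathrin adaptor subunit that lies 14.4 Mb from Pdcd1, rose from 186 ± 15.3 to 281 ± 20.4 (SD, n = 3 libraries each; 0.60, SE 0.12, adjusted p = 0.0194 from edgeR). Jaml, a junctional adhesion molecule that myeloid cells use to cross epithelia, fell from 2712 ± 42.1 to 1078 ± 99.1 normalized counts (SD, n = 3 libraries each; -1.33, SE 0.08, adjusted p = 9.0e-06 from edgeR), the largest change of this list in size. The abundant Runx3 (log2 fold change -0.01, adjusted p = 0.969 from edgeR) and Slamf7 (0.14, adjusted p = 0.248 from edgeR) did not pass the test. With GC and length offsets the sign of Runx3 turned and it was called higher (0.12, adjusted p = 0.0483 from edgeR). The call of Nectin1 was lost without Pdcd1f/f replicate 2 (adjusted p = 0.0741) and without Pdcd1f/fLysMcre replicate 1 (adjusted p = 0.0876, both from edgeR). That of Ap1s3 was lost without Pdcd1f/f replicate 2 (adjusted p = 0.130) or 3 (adjusted p = 0.0677) and without Pdcd1f/fLysMcre replicate 1 (adjusted p = 0.0873) or 2 (adjusted p = 0.0715, all from edgeR). The number called was 1 without Pdcd1f/f replicate 2 or without Pdcd1f/fLysMcre replicate 1, 7 (4 higher, 3 lower) without Pdcd1f/f replicate 1 and 6 (3 higher, 3 lower) by DESeq2.

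Of 9 cDC1 genes tested 1 was higher, beside 2.42% of all genes tested, with a median log2 fold change of -0.14. Cadm1, an adhesion molecule of cDC1 and of many other cells, rose from 1022 ± 39.3 to 1289 ± 47.8 normalized counts (SD, n = 3 libraries each; 0.34, SE 0.07, adjusted p = 0.0268 from edgeR), a call that held without Pdcd1f/f replicate 1. Without each of the other 5 libraries its adjusted p lay between 0.0705 and 0.174 (edgeR). Cadm1 (chr9:47530173-47857637) lies in the same region of chromosome 9 as Nectin1 (chr9:43743984-43807461) and Jaml (chr9:45079183-45108534). Whether this shared position has a part in their calls was not tested. Tlr3, the receptor for double-stranded RNA that cDC1 use and that is named after its values were seen, was at 966, 799 and 797 normalized counts in Pdcd1f/f and at 628, 707 and 555 in Pdcd1f/fLysMcre. The genotypes did not overlap (log2 fold change -0.44, SE 0.11, adjusted p = 0.0526 from edgeR), and Tlr3 was called lower in 10 of the 19 alternatives, DESeq2 among them (adjusted p = 0.0084). The number of cDC1 genes called was 3, of which 2 were lower, without Pdcd1f/f replicate 1. The late endosomal GTPase gene Rab7b (-0.01, adjusted p = 0.954), the cross-presentation gene Wdfy4 (-0.19, adjusted p = 0.209) and Naaa (-0.14, adjusted p = 0.301), a lipid amidase gene (all log2 fold changes from edgeR), did not pass the test. Naaa did without Pdcd1f/f replicate 1 (-0.23, adjusted p = 0.0224 from edgeR). Of 7 cDC2 genes tested 1 was higher, beside 2.42% of all genes tested, with a median of -0.17. Tnip3, an inhibitor of NF-kB signaling, rose from 1546 ± 164 to 2084 ± 133 normalized counts (SD, n = 3 libraries each; 0.43, SE 0.09, adjusted p = 0.0203 from edgeR). The call of Tnip3 was lost without Pdcd1f/f replicate 2 (adjusted p = 0.120) or 3 (adjusted p = 0.0819) and without Pdcd1f/fLysMcre replicate 1 (adjusted p = 0.1102) or 2 (adjusted p = 0.0794, all from edgeR). The summed normalized counts of the 13 cDC2 genes ranged from 2659 to 2853 in Pdcd1f/f and from 3004 to 3258 in Pdcd1f/fLysMcre libraries without overlap, but per length they overlapped, at 43.0 to 44.6 and 42.4 to 44.8 TPM. Tnip3 alone differed by 538 normalized counts between the means. The other 12 cDC2 genes together ranged from 1119 to 1233 in Pdcd1f/f and from 1064 to 1067 in Pdcd1f/fLysMcre libraries, and from 33.3 to 35.1 and from 29.7 to 30.4 TPM, lower without overlap on both scales. Tnip3 was set apart after its rise was seen, and Clec10a made up most of the remaining normalized counts. Clec10a was at 723 and 641 normalized counts on average, with overlap between the genotypes (log2 fold change -0.17, adjusted p = 0.295 from edgeR). The 15 cDC1 genes summed to 25185 to 26790 normalized counts in Pdcd1f/f and to 24511 to 25038 in Pdcd1f/fLysMcre, or to 354 to 363 and 346 to 353 TPM. These cDC1 sums were lower in Pdcd1f/fLysMcre without overlap on both scales. Most of them was Rab7b, Wdfy4 and Naaa, at 13952.5, 5618 and 4116 normalized counts on average in Pdcd1f/f, and none of these passed the test. Xcr1 and Clec9a added 1.85 and 0.74, so the sums do not describe the genes most restricted to cDC1. The 21 genes shared by cDCs summed to 15769.5 to 16743 and 15137 to 15671 normalized counts, or 283 to 292 and 258 to 273 TPM. Their sums were also lower without overlap on both scales. Jaml alone differed by -1633 normalized counts between the means, and fell from 61.2 to 24.7 TPM. This exceeded the fall of the whole list on both scales, so the means of the other genes together were higher in Pdcd1f/fLysMcre.

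Of the genes of mature DCs 3 of 18 tested were called, all higher, beside 2.42% called higher over all genes tested. The median log2 fold change of the list was 0.04. Cd200, the ligand of an inhibitory receptor on myeloid cells, rose from 1633 ± 103 to 2958 ± 82.1 normalized counts (0.86, SE 0.07, adjusted p = 1.0e-04 from edgeR). Serpinb6b, a serine protease inhibitor, rose from 618 ± 60.9 to 1096 ± 58.5 (0.83, SE 0.09, adjusted p = 8.2e-04 from edgeR). Traf1, an adaptor of TNF receptors induced by NF-kB, rose from 8042 ± 351 to 10293 ± 674 (SD, n = 3 libraries each; 0.36, SE 0.07, adjusted p = 0.0148 from edgeR). Cd200 and Serpinb6b kept their calls in each of the 19 alternatives. Traf1 lost its call without Pdcd1f/f replicate 2 (adjusted p = 0.0906) and without Pdcd1f/fLysMcre replicate 1 (adjusted p = 0.0935) or 3 (adjusted p = 0.0562, all from edgeR). Cd83 (-0.06, adjusted p = 0.601) and Tmem123 (0.08, adjusted p = 0.531, both log2 fold changes from edgeR), which are abundant in these TAMs, did not pass the test, as Ccr7 did not. The 20 genes of mature DCs summed to 51291 to 51852 normalized counts in Pdcd1f/f and to 54236 to 56912 in Pdcd1f/fLysMcre. Per length they summed to 1037 to 1107 and 1115 to 1199.8 TPM, higher without overlap on both scales. The means of Traf1, Cd200 and Serpinb6b differed by 2251, 1325 and 478 normalized counts. These 3 called genes accounted for the higher sum in normalized counts. The other genes of the list went both ways, among them Tmem123 (922) and Cd83 (-674), and together were not higher on this scale.

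Of 5 pDC genes tested 1 was higher, beside 2.42% of all genes tested. Runx2, a transcription factor also active in bone, rose from 450 ± 30.4 to 608 ± 53.4 normalized counts (SD, n = 3 libraries each; 0.43, SE 0.10, adjusted p = 0.0343 from edgeR). Without each library other than Pdcd1f/f replicate 1 its adjusted p lay between 0.0560 and 0.187. The pDC factor Tcf4 had a log2 fold change of -0.06 (adjusted p = 0.668 from edgeR), and was called lower with the block and GC and length offsets (-0.13, adjusted p = 0.0315 from edgeR). Among 18 transcription factors of DC development, edgeR called 0, beside 5.43% of all genes tested, with 4 at an unadjusted p under 0.05. DESeq2 called 2, both lower, and limma-trend 0. The edgeR count was 2, both lower, without Pdcd1f/f replicate 1, and 6, of which 3 were lower, without both libraries that stand apart by GC content. Irf8, a factor that cDC1 and pDC development requires, was at 3818, 4412 and 4530 normalized counts in Pdcd1f/f and at 3368, 3384 and 3605 in Pdcd1f/fLysMcre (log2 fold change -0.30, SE 0.08, adjusted p = 0.0519 from edgeR). Nfil3, a factor upstream of cDC1 development, was at 6423, 7216 and 7100 normalized counts in Pdcd1f/f and at 5788, 5869 and 5948 in Pdcd1f/fLysMcre (log2 fold change -0.23, SE 0.07, adjusted p = 0.0655 from edgeR). Neither gene overlapped between the genotypes. Irf8 was called in 11 and Nfil3 in 7 of the 19 alternatives, DESeq2 among them (adjusted p = 0.0114 and 0.0224), and both were named after their values were seen. The most abundant, Klf4 (0.06, adjusted p = 0.566), Zeb2 (0.10, adjusted p = 0.414) and Id2 (-0.02, adjusted p = 0.866, all log2 fold changes from edgeR), did not pass the test, and the median of the list was -0.02.

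**Figure D4:**
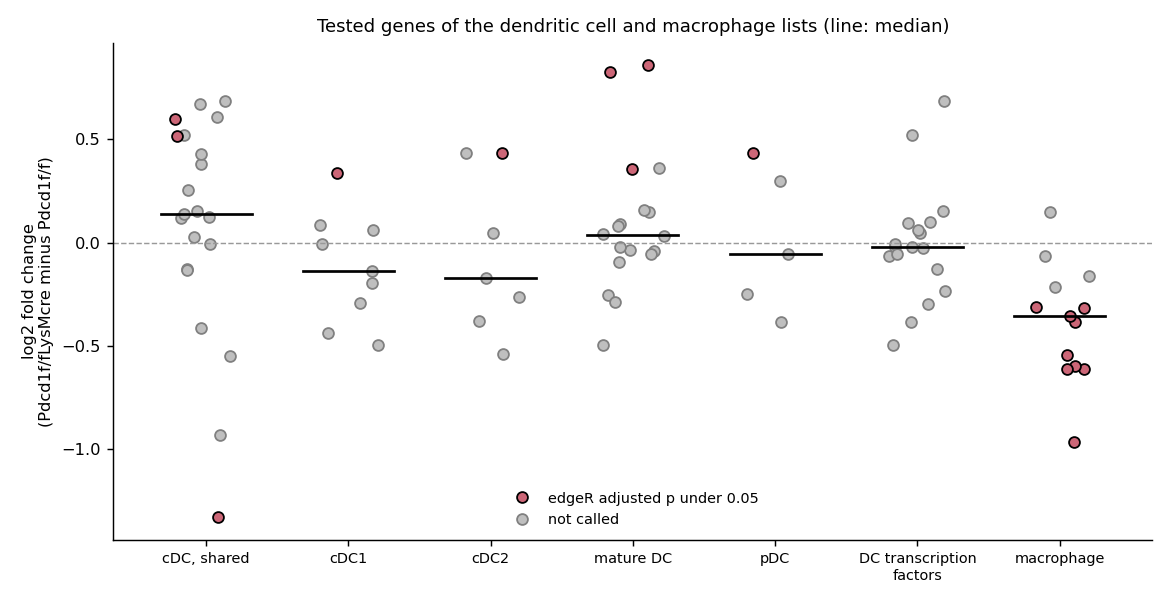
Log2 fold change (vertical axis, Pdcd1f/fLysMcre minus Pdcd1f/f) of the tested genes of 6 DC lists and of 13 macrophage markers; each point is 1 gene, filled points had an edgeR adjusted p under 0.05, and lines are medians. Medians of the DC lists lie from -0.17 to 0.14, their calls reach from -1.33 (Jaml) to 0.86 (Cd200), and the 9 macrophage markers called are all lower.

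The tested genes whose normalized counts followed Itgax most closely over the 6 libraries were sought by the root mean square difference of log2 values centred on each gene's mean. They were Aldh18a1 (0.0201), an enzyme of proline synthesis, Tiam1 (0.0298), an activator of the GTPase RAC1, and Ptafr (0.0312), the receptor for platelet-activating factor, where the median gene differed by 0.257. For Cd24a they were Rbm34 (0.0214), an RNA-binding protein gene, Clec5a (0.0226), a myeloid C-type lectin that signals through DAP12, and Flrt3 (0.0464), a cell adhesion protein gene, with a median of 0.319. None of these 6 is in a DC list or among the markers of other cells used here. All lists together, partners included, name only 173 genes, beside 14469 genes tested. An absence from them is therefore what most genes would show, and no conclusion is drawn from it.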

How the data were processed

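RNA-seq of TAMs was analysed in 3 Pdcd1f/f and 3 Pdcd1f/fLysMcre libraries, grouped by the labels. The authors made stranded polyA libraries, trimmed paired-end reads with cutadapt 2.5, aligned them to GRCm38 with STAR 2.7.3a and counted them with featureCounts (Subread 1.6.2), and they deposited raw counts per Ensembl gene. A second deposited table gives a normalized signal for 16552 genes, each value being a raw count over a DESeq2 size factor of its library. The strand setting and the treatment of multi-mapped reads are not given in the sources used here. FastQC 0.11.5 and DESeq2 1.24.0 are named in the submitters' processing notes. Symbols, positions and exon lengths came from GENCODE M21.

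Raw counts were compared with edgeR 4.0.16 (R 4.3.3) using filterByExpr (minimum count 10, minimum total 15), TMM, robust glmQLFit and the two-sided glmQLFTest, with Benjamini-Hochberg adjustment over 14469 genes and a threshold of 0.05. Intervals cover 95%. Alternatives were other scalings and filters, DESeq2 1.42.0 with Benjamini-Hochberg or Storey adjustment, limma-trend (limma 3.58.1) on log2(normalized + 1), the replicate number as a block, loess offsets (span 0.5) for GC content and length, each library left out and a threshold of 0.01; edgeR over the genes of the normalized table and the fit without the 2 libraries apart by GC content were chosen after seeing the data. In counts simulated for this comparison over 14225 genes, edgeR recovered 75 of 98 genes changed by 0.8 and 85 of 99 changed by 1.5 on the log2 scale, with 10 false calls among 170. Replicates of a genotype differed by more than sampling noise (chi-square per gene of 5.42 to 43.0).

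The 10 genes, the lists of DC genes, partners and markers, and the tests were chosen with earlier results of these data known. Named were the 10 genes, the ligands and partners, the defining markers, the genes of the DC lists that passed the threshold (at most 5 a list) or exceeded 1000 normalized counts (the 3 highest a list), and the 3 nearest patterns of Itgax and Cd24a. Icam3 was not matched. One defining marker is not reported here. RefSeq promoters were matched by symbol.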

Additional observations from a re-analysis of the deposited data

How the results depend on the processing

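Itgax and Cd24a were both called under each alternative except those named here. The number of the 10 genes called was 2, and it was 3 without the 2 libraries apart by GC content and with the replicate block together with GC and length offsets, 0 at a threshold of 0.01, and between 0 and 3 when a library was left out: 0 without Pdcd1f/f replicate 2 or Pdcd1f/fLysMcre replicate 1, 1 (Itgax) without Pdcd1f/f replicate 3 or Pdcd1f/fLysMcre replicate 2 or 3, and 3 without Pdcd1f/f replicate 1. Over all genes 786 were called (350 higher, 436 lower), against 1951 with at least 1 count in any library, 1528 with DESeq2 and Benjamini-Hochberg adjustment, 1875 with Storey q values, 283 at a threshold of 0.01, 2706 with GC and length offsets (1572 higher, 1134 lower), 2750 with these and the block (1567 higher, 1183 lower), 3757 without the 2 libraries apart by GC content, and 222 to 3181 when a library was left out; the causes were not tested. The replicate numbers share only a label: deviations of same-numbered libraries correlated at -0.0132, -0.0970 and 0.220 over 14469 genes, Pdcd1f/f replicate 1 correlated best with Pdcd1f/fLysMcre replicate 2 (0.235), and the replicate block gave 1027 genes and 2 of the 10.

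Some log2 fold changes turned in sign, most of them near 0; those of Siglecg (0.23, SE 0.52) and Csf2 (0.34, SE 0.61) rest on few counts. With GC and length offsets, without and with the block, they were 0.12 and 0.12 for Runx3, 0.0028 and 0.0018 for Cd83, 0.047 and 0.047 for Icam1, and 0.0083 and 0.0086 for Csf2rb. Without the block this fit called Runx3 higher (adjusted p = 0.0483), and with the block it called Tcf4 lower (-0.13, adjusted p = 0.0315, both from edgeR). Itgb2 was at -0.0012 with scaling by library size alone and at -0.014 without the 2 libraries apart by GC content. With a library left out the ranges were -0.070 to 0.20 for Ccr7, -0.065 to 0.057 for Runx3, -0.030 to 0.0098 for Rab7b, -0.087 to 8.7e-05 for Tcf4, -0.068 to 0.0088 for Id2, -0.051 to 0.059 for Itgb2, -0.42 to 0.58 for Siglecg and -0.11 to 0.86 for Csf2. Depth limits Xcr1 and Clec9a, which had at most 6 counts in a library.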
